A study of Homo sapiens with 24 samples.

Results

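RNA was sequenced from the insoluble cytoplasmic fraction of U2OS cells, a human osteosarcoma line, that received the DDX3 inhibitor RK-33 with or without a later arsenite stress. The comparison used 6 of the 24 libraries of the series, all those labelled as insoluble fraction with RK-33 in the medium. The RK-33 group (n = 3) was held in 6 µM RK-33, and the Combo group (n = 3) was pre-treated with the same dose for 1 h and then exposed to 500 µM NaAsO2 for 60 min. As references served the insoluble fraction of Ctrl cells (DMSO vehicle alone, n = 3) and NaAsO2 cells (arsenite without RK-33, n = 3), and the soluble fraction of the RK-33 and Combo cells (n = 3 each). The comparison asks what an arsenite stress does to the pelleted RNA when the helicase is already inhibited. All groups are 1 cell line. The pellet was spun down from a lysate cleared of nuclei at low speed, and it holds whatever sediments at that force, not granules alone.

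Arsenite is a thiol-reactive compound that induces oxidative stress and arrests translation initiation. Messenger RNAs released from polysomes then gather with RNA-binding proteins such as G3BP1 in cytoplasmic stress granules. DDX3, encoded by DDX3X, is an ATP-dependent RNA helicase of the DEAD-box family that unwinds RNA during translation initiation and is itself a stress granule component, and RK-33 occupies its ATP-binding site. Arsenite also sets off transcriptional programmes with different master regulators. MTF1 drives the metallothioneins, HSF1 the heat shock proteins, NRF2 the antioxidant genes, MAP kinases the immediate early genes and ATF4 the integrated stress response.

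In the insoluble fraction, arsenite added on top of RK-33 raised 220 genes and lowered 250 of the 17666 genes tested (1.25% and 1.42%), by counts over exons. The genes that rose were led by metallothioneins (MT1X, MT1G, MT1E, MT2A), the inducible HSP70 gene HSPA6, HMOX1, and the transcription factors FOS, FOSB and ATF3. Those that fell were mostly sparsely covered noncoding RNAs and pseudogenes, with VMP1 the best-covered exception. A gene was called when edgeR's quasi-likelihood test gave a Benjamini-Hochberg adjusted p under 0.05 together with a log2 fold change of at least 1 in size. Values below are exon counts scaled to a common library size (CPM) unless introns are named, log2 fold changes are Combo minus RK-33 with their standard errors, and adjusted p-values are from that test.

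The 6 libraries held between 14626500 and 19799530 counts over exons and introns together. Combo replicate 3 stood apart from the other Combo libraries. On the second principal component of log2 CPM, which held 37.3% of the variance, it lay at -23.7 while Combo replicates 1 and 2 lay at 14.4 and 19.2. A chi-square comparison of its counts with theirs gave 25.5 and 32.1 per degree of freedom, where Poisson sampling alone gives about 1, against 3.19 between replicates 1 and 2, and 2.39 to 5.97 among the RK-33 libraries. The counts of called genes and the named genes were also computed without it, and the text says where a call changed. Without Combo replicate 3, 350 genes were called (225 higher and 125 lower), of which 182 higher and 115 lower were among the genes called with it. Leaving out RK-33 replicate 2 gave 275 (169 higher and 106 lower). Among the cell line's defining mesenchymal and bone-lineage markers, VIM, COL1A1, SPARC, RUNX2, CDH2 and FN1 were present at 53.8 CPM or more in each of the 6 libraries and TWIST1 had 0 counts, while 8 markers of epithelial, blood, liver, pigment and glial cells were at 6.29 CPM or less, with CD3E and HBB at 0. In bulk RNA of this kind, fewer cells that hold a transcript and less of it per cell cannot be told apart.

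**Figure D1:**
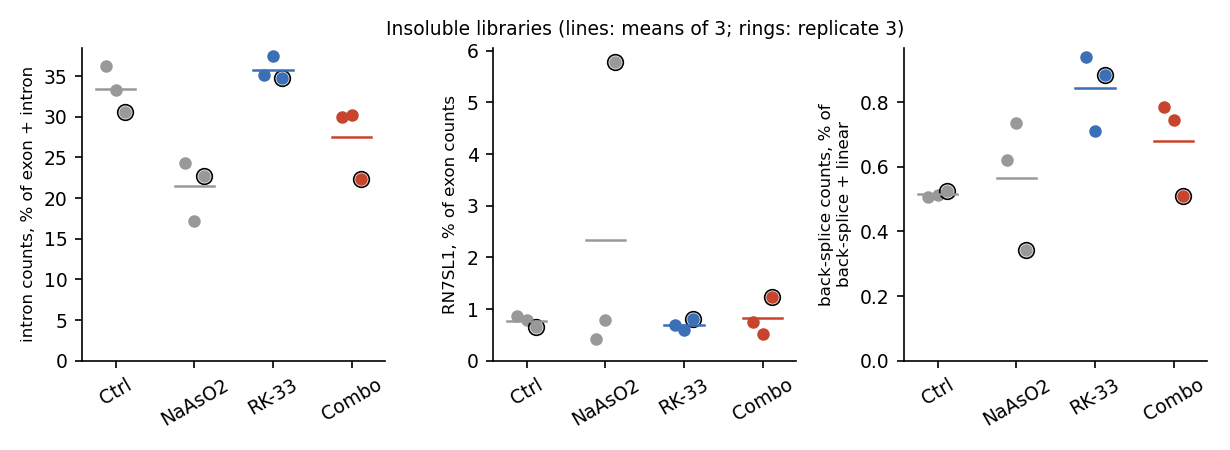
Share of intron counts, share of RN7SL1 and content of circular RNA in each insoluble library, in percent, with 3 points per group, lines at group means and rings on replicate 3. The Combo points for introns lie below the 3 RK-33 points with replicate 3 lowest at 22.3%, and NaAsO2 replicate 3 lies alone at 5.79% RN7SL1.

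Of 3 shares of whole RNA classes, that of introns separated the groups and those of RN7SL1 and circular RNA did not. Intron counts made up 35.1, 37.5 and 34.8% of each RK-33 library and 29.9, 30.2 and 22.3% of each Combo library. The Combo libraries were all below the RK-33 libraries, with means of 27.5 ± 4.47% and 35.8 ± 1.47% (SD, n = 3 each; two-sided exact permutation p = 0.1, the smallest that 3 against 3 libraries can give). RN7SL1, the RNA of the signal recognition particle, took 0.689, 0.604 and 0.799% of exon counts under RK-33 and 0.746, 0.521 and 1.23% under Combo. These groups overlapped, and the difference of 0.135 percentage points (exact permutation p = 0.8, n = 3 each) became -0.0644 without Combo replicate 3. Circular RNA content, the back-splice junction counts as a share of all junction counts over 394 circular RNAs, was 0.938, 0.710 and 0.883% under RK-33 and 0.784, 0.743 and 0.509% under Combo. These groups overlapped as well, with a difference of -0.165 percentage points (exact permutation p = 0.3, n = 3 each), or -0.0802 without Combo replicate 3.

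The metallothioneins are small cysteine-rich proteins that bind zinc, cadmium and arsenite. Of the 11 genes listed for this group with the zinc exporter SLC30A1 and the regulator MTF1, 6 passed the filter on low counts and 4 of these rose, with a median log2 fold change of 1.71 against 0.02 over all genes tested. MT1X (chr16:56682470-56684196, plus strand) read 6.31, 6.63 and 7.77 CPM in the RK-33 libraries and 136, 126 and 114 CPM in the Combo libraries. All 3 Combo libraries lay far above all 3 RK-33 libraries, a log2 fold change of 4.18 ± 0.20 (adjusted p 9.2e-12, edgeR), which was 4.26 without Combo replicate 3. MT1G (chr16:56666730-56668065, minus strand) was close to undetected under RK-33, at 0.259, 0.288 and 0.498 CPM, and stood at 14.8, 12.2 and 19 CPM under Combo (log2 fold change 5.43 ± 0.49). Log2 fold changes were lower for the members already well expressed under RK-33. MT1E went from 70.0, 54.6 and 61.4 CPM to 252, 243 and 253 CPM (log2 fold change 2.01) and MT2A from 237, 195 and 221 CPM to 533, 501 and 713 CPM (1.42, or 1.26 without Combo replicate 3). Per kilobase of exon, MT2A remained the highest of these under Combo at 637 CPM, followed by MT1E at 237, MT1X at 72.6 and MT1G at 20.4. SLC30A1, which carries zinc out of the cell, had a log2 fold change of 0.67 (adjusted p 0.0476), under the fold limit. The metallothionein genes are near-identical copies of one another, so reads that matched more than 1 of them were not counted.

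Promoters of the stress genes with the smallest adjusted p in the metallothionein, heat shock and NRF2 lists are shown for the members whose 300-base window held several copies of the matching element. The sequences are RefSeq promoters on GRCh38.p14, 250 bases before to 50 bases after the gene's start, written 5′ to 3′ on the gene's strand. Capitals mark a metal response element core (TGCACNC or TGCGCNC), a heat shock element (GAANNTTC or TTCNNGAA), an antioxidant response element (TGACNNNGC), a cyclic AMP response element (TGACGTCA) or an AP-1 site (TGACTCA), each searched on both strands.
MT1X, chr16:56682220-56682519, plus strand: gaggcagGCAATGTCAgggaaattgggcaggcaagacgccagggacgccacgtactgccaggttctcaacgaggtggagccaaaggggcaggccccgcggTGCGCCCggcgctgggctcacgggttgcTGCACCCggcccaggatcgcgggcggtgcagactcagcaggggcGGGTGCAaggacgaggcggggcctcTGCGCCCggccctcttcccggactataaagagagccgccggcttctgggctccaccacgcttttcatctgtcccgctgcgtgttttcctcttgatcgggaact
MT2A, chr16:56608334-56608633, plus strand: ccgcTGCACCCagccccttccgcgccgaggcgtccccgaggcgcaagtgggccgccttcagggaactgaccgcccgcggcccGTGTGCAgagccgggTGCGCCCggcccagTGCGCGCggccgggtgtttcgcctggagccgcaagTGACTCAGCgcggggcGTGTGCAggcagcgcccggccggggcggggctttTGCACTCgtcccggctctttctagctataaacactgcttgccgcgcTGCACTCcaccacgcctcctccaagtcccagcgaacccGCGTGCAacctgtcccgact
HSPA6, chr1:161524290-161524589, plus strand: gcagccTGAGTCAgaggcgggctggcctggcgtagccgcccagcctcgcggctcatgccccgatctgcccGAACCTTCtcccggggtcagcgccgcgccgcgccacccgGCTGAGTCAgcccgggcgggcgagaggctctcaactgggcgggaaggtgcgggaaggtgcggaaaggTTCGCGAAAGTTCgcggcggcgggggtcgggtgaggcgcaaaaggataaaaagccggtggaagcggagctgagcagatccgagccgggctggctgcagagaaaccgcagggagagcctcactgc

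The MT1X window held 4 metal response element cores, with first bases at -150, -122, -78 and -53 relative to the start, and 1 antioxidant response element. MT2A held 8 such cores, between -246 and 30, with 1 antioxidant response element that overlaps an AP-1 site at -104. HSPA6 held 3 heat shock elements at -180, -74 and -69, of which the last 2 overlap, as well as 2 AP-1 sites, 1 of them within an antioxidant response element. The windows of DNAJA4, DNAJB1 and RGS2 held 1, 0 and 1 matches, none of them a heat shock element. DNAJA4 and DNAJB1 had 3 promoter entries each, and the matches given are those of 1 window. HMOX1, MT1E, MT1G and FTH1 were not matched. Metal response element cores of these letters are common, and stood in 29.3% of all 27305 promoters, 38.2% of the 11789 matched to tested genes, 45.2% of the 135 matched to genes that rose and 36.8% of the 68 matched to genes that fell. For heat shock elements the shares were 13.7, 10.2, 14.8 and 13.2%, for antioxidant response elements 13.6, 15, 12.6 and 16.2%, for cyclic AMP response elements 1.98, 3.21, 5.19 and 0%, and for AP-1 sites 4.92, 3.39, 4.44 and 4.41%, in the same order. These letter matches describe the windows and are not sites of measured binding.

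**Figure D2:**
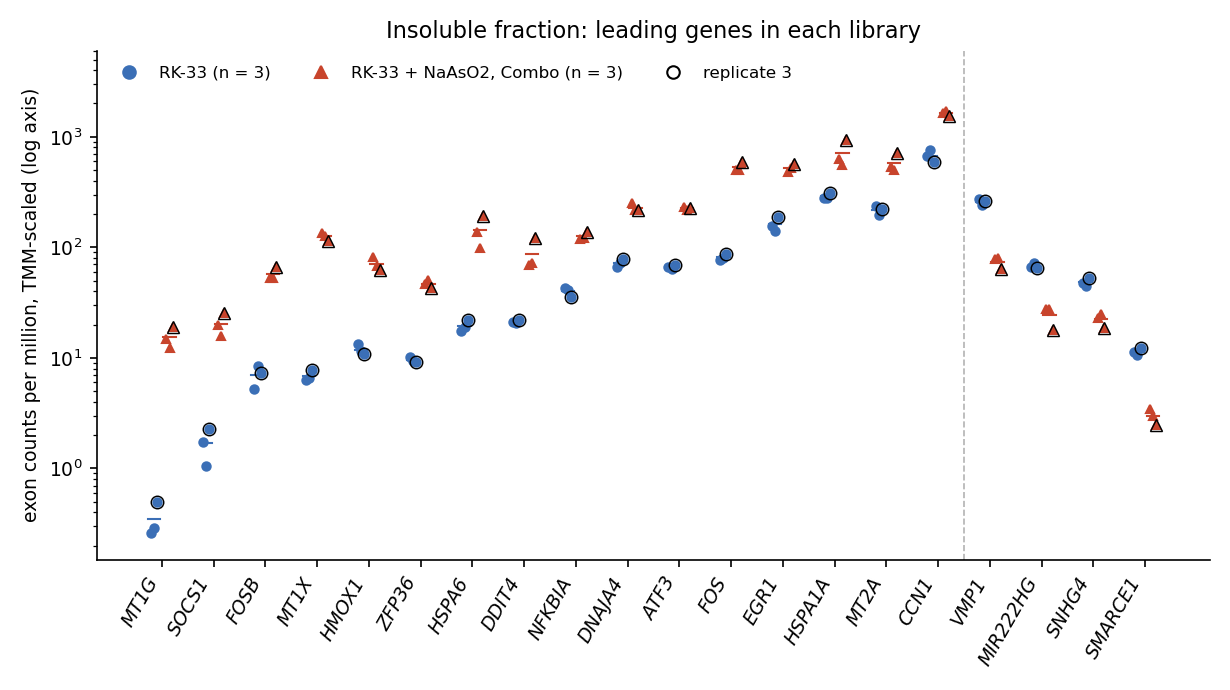
Exon CPM on a log axis for leading genes in each insoluble library, RK-33 as circles and Combo as triangles (n = 3 each), bars at group means and rings on replicate 3, with genes that rose left of the dashed line and genes that fell to its right. MT1G and MT1X are farthest apart between the groups, and VMP1 is the highest of the genes that fell.

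The heat shock genes encode chaperones that hold and refold damaged proteins. In the HSP70 and HSP110 list, 4 of 10 tested members rose and none fell, with a median of 0.35, and 3 rose without Combo replicate 3. HSPA6, a strictly inducible HSP70, read 17.6, 18.8 and 21.8 CPM under RK-33 and 139, 99.2 and 192 CPM under Combo. The groups did not overlap although the Combo libraries differed widely among themselves (log2 fold change 2.89 ± 0.26, adjusted p 1.21e-07, and 2.63 without Combo replicate 3). HSPA1A, the major inducible HSP70, went from 282, 279 and 308 CPM to 624, 557 and 940.0 CPM (1.29). HSPA1B, its near-identical neighbour, went from 308, 287 and 316 CPM to 591, 524 and 876 CPM (1.13). In both, Combo replicate 3 was the highest library, and without it the HSPA1B change was 0.88 and no longer passed the fold limit. Reads shared by these copies were not counted, so the split of reads between them is uncertain. HSPA1L rose by 1.22 on the log2 scale, whereas the constitutive HSPA8 differed by 0.33 (adjusted p 0.202).

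In a list of 25 genes that holds cochaperones, HSP90s, small heat shock genes and a few other genes of the heat shock response, 3 rose (the cochaperones DNAJA4 and DNAJB1, and RGS2) and none fell, with a median of 0.41 with Combo replicate 3 and 0.32 without it. DNAJA4, a J-domain partner of HSP70, read 66.4, 72.1 and 78.5 CPM and then 252, 216 and 217 CPM, with no overlap (1.66 ± 0.15, adjusted p 1.21e-07). DNAJB1, the J-domain partner of the inducible HSP70s, read 256, 226 and 263 CPM and 539, 533 and 747 CPM (1.29, or 1.12 without Combo replicate 3). RGS2, a regulator of G-protein signalling, changed by 1.69. BAG3, the HSP70 nucleotide exchange factor of aggrephagy, and UBB, a polyubiquitin gene, changed by 0.94 and 1.00, below the limit of 1. When the limit on fold change was dropped, 8 of the 25 passed the adjusted p as higher, against 763 of all 17666 (4.32%).

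HMOX1, heme oxygenase 1, degrades heme and is a gene that BACH1 represses and NRF2 activates. It read 13.3, 11.5 and 10.9 CPM under RK-33 and 81.2, 67.5 and 61.8 CPM under Combo. Every Combo library was above every RK-33 library (log2 fold change 2.56 ± 0.14, adjusted p 6.75e-11). In the NRF2 and BACH1 list 2 of 22 tested genes rose, HMOX1 and FTH1, the ferritin heavy chain, with a median of 0.35. FTH1 changed by 1.03, and by 0.96 without Combo replicate 3, which left HMOX1 alone past both thresholds. The glutathione synthesis gene GCLM and the thioredoxin reductase gene TXNRD1 passed the adjusted p with changes of 0.79 and 0.53. The ferritin light chain gene FTL changed by 0.44 (adjusted p 0.123).

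Immediate early genes are transcribed within minutes of a stimulus from promoters that need no new protein. Of the 21 listed AP-1, EGR, ATF3, MYC and NR4A genes, all were tested, 8 rose and none fell, with a median of 0.71. FOS (chr14:75278826-75282230, plus strand), a subunit of the AP-1 transcription factor, read 76.4, 79.8 and 87.4 CPM under RK-33 and 505, 504 and 597 CPM under Combo. The Combo libraries were uniformly high (log2 fold change 2.72 ± 0.14, adjusted p 2.13e-11). FOSB, another AP-1 subunit, went from 5.28, 8.36 and 7.27 CPM to 52.6, 53.3 and 66.3 CPM (3.05). ATF3, a transcription factor shared with the integrated stress response, went from 65.7, 63.9 and 68.8 CPM to 234, 215 and 229 CPM (1.77 ± 0.10, adjusted p 1.18e-10). EGR1 and EGR4, zinc finger transcription factors, changed by 1.68 and 1.93, the postsynaptic gene ARC by 1.79, and IER3, an inhibitor of apoptosis, by 1.67. IER5, a cofactor of HSF1, changed by 1.06 with Combo replicate 3 and by 0.84 without it (adjusted p 0.121).

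Feedback regulators of the same pathways rose beside them. Among 13 tested MAP kinase phosphatases and AU-rich element binders, 3 rose with a median of 0.75, and 4 without Combo replicate 3. The gene added was DUSP10, a phosphatase of p38 and JNK, at 0.99 with that library and 1.12 without it. ZFP36, which destabilises messages with AU-rich elements, read 10.1, 9.32 and 9.27 CPM and 46.3, 51.0 and 43.2 CPM (2.29). The anti-proliferative factor BTG2 changed by 1.30, and the nuclear MAP kinase phosphatase DUSP2 by 1.53 with the widest error of the 3 (SE 0.32). Of 14 tested NF-kB feedback, cytokine and growth factor genes, NFKBIA and CCN1 rose, with a median of 0.45, and without Combo replicate 3 the chemokine gene CCL2 passed too (0.91 with it and 1.09 without). NFKBIA, the inhibitor that holds NF-kB in the cytoplasm, read 42.5, 41.4 and 35.7 CPM and 120.0, 121 and 136 CPM (1.66). CCN1, a secreted matricellular protein, read 674, 762 and 587 CPM and 1657, 1699 and 1538 CPM (1.27). For the KLF transcription factors the median of 10 was 0.40, and none was called, with KLF9 nearest to the limit at 0.95.

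The integrated stress response is switched on when phosphorylated eIF2 alpha slows initiation and ATF4 protein accumulates. Of 19 listed ATF4 genes 6 rose and none fell, with or without Combo replicate 3, and their median was 0.46. DDIT4, an inhibitor of mTORC1, read 21.1, 20.6 and 21.8 CPM and 69.0, 71.8 and 121 CPM (2.04, or 1.74 without Combo replicate 3, its highest library). PPP1R15A, the stress-induced eIF2 alpha phosphatase subunit, went from 70.4, 85.6 and 82.9 CPM to 229, 223 and 358 CPM (1.76). The glutathione-degrading enzyme CHAC1, the transcription factor DDIT3 (CHOP), ATF4 itself and the leucine sensor SESN2 changed by 1.57, 1.47, 1.16 and 1.14. In the unfolded protein response list of the endoplasmic reticulum, none of 16 was called, with a median of 0.10. HERPUD1, of the degradation pathway of that organelle, had 0.94 and, without Combo replicate 3, 1.05, which passed the limit. Of 14 tested p53 and GADD45 genes, GADD45B and BBC3 rose by 1.21 and 1.01 (median 0.49), and BBC3, which encodes PUMA, was at 0.79 without Combo replicate 3 (adjusted p 0.0766).

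Further genes that rose did not belong to any of these lists. ID1, a helix-loop-helix inhibitor of differentiation factors, read 74.0, 66.0 and 65.8 CPM and 290.2, 324 and 334 CPM (2.20 ± 0.19, adjusted p 7.72e-08). NDRG1, a stress- and hypoxia-responsive gene, went from 80.3, 84.9 and 82.6 CPM to 198, 202 and 202 CPM, with almost no spread in either group (1.28 ± 0.10). SOCS1, which turns off cytokine receptor signalling, went from 1.73, 1.06 and 2.29 CPM to 19.6, 15.9 and 25.4 CPM (3.58 ± 0.39). The kinase gene SGK1, the G-protein regulator RGS16, the cytokine gene IL16 and the Patched-related gene DISP3 changed by 1.38, 2.15, 2.06 and 3.30. Among all 220 genes that rose, 108 reached 10 CPM in the Combo mean and 28 reached 100 CPM, and in 219 the 6 libraries did not overlap. The count of 219 follows largely from the call on these same libraries and is no separate evidence. Over all genes tested, every Combo library lay above every RK-33 library in 2717, 15.4%.

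**Figure D3:**
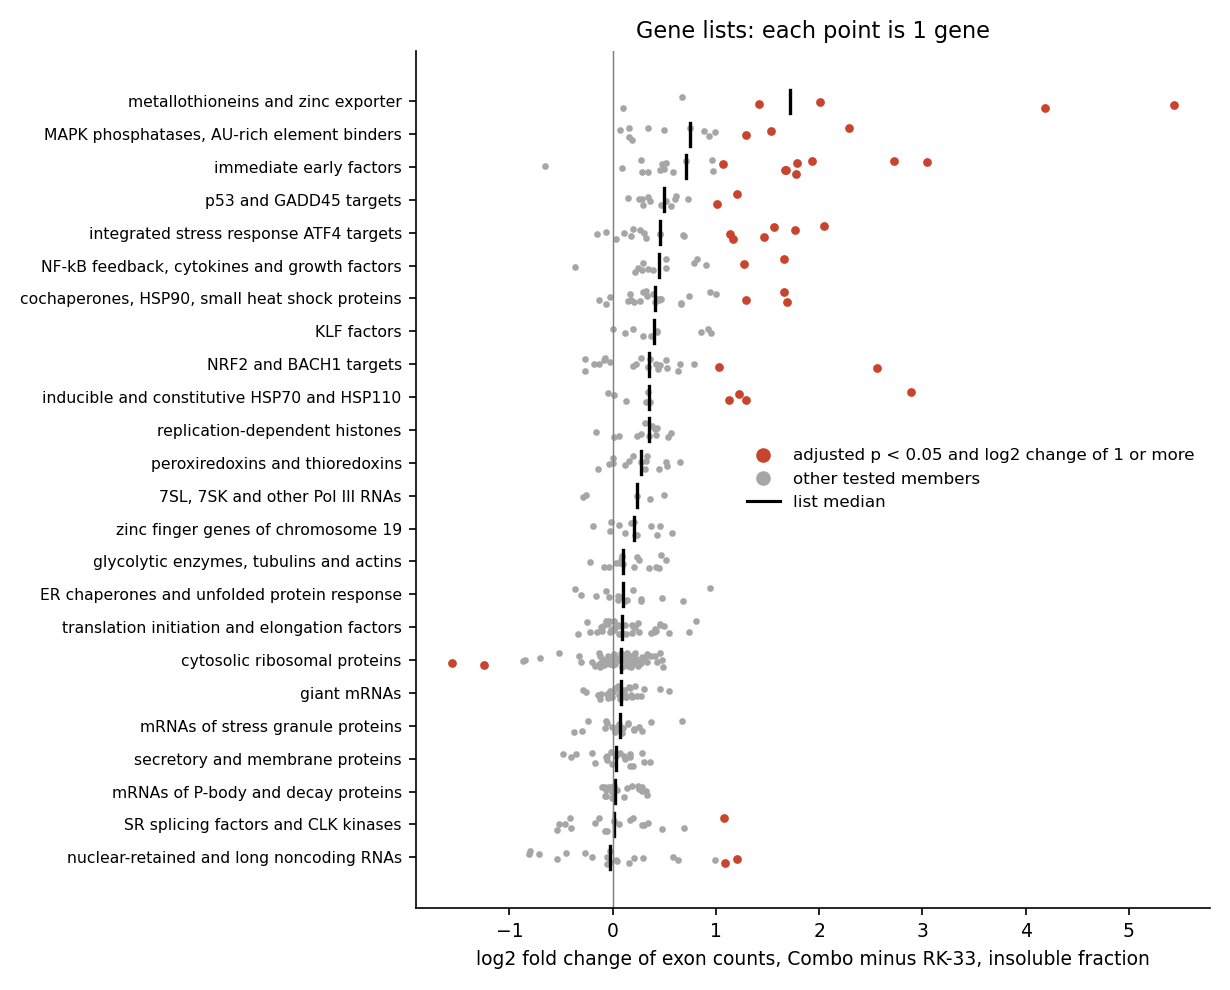
Log2 fold change, Combo minus RK-33, of every tested member of the 24 gene lists, with genes past both thresholds in red, other members in grey and list medians as black bars. Metallothioneins have the highest median at 1.71, and the lists of ribosomal, translation, stress granule and P-body protein messages have medians of 0.03 to 0.09.

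The messages of the granule machinery itself did not move past the thresholds. None of 22 messages of stress granule proteins was called (median 0.08), nor any of 20 of P-body proteins (median 0.03). Over all genes tested, 1.25% rose and 1.42% fell, so a list this short can easily hold no call. The lack of calls here and in the other short lists is close to that share and does not set them apart. DDX3X, the target of RK-33, read 416, 382 and 395 CPM and 448, 472 and 354 CPM, overlapping ranges with a change of 0.09 ± 0.20 (adjusted p 0.858). RK-33 acts on the protein, so this level is no check of its action. G3BP1 differed by 0.21 ± 0.11 (adjusted p 0.296). No call was made among 37 translation factors (median 0.09), 35 giant messages (0.08), 21 secretory and membrane protein messages (0.04), 17 glycolytic, tubulin and actin genes (0.10), 15 peroxiredoxins and thioredoxins (0.27), 13 histone genes (0.35), 13 zinc finger genes of chromosome 19 (0.21) or 5 RNA polymerase III transcripts (0.24). Of 19 SR splicing factors and CLK kinases 1 rose, SRSF3, by 1.08 (list median 0.02). Of 79 cytosolic ribosomal protein genes, 2 fell, among them RPL36A, and none rose (median 0.08).

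Among 21 long noncoding RNAs, 2 rose (median -0.03), namely MIR22HG by 1.2 and KCNQ1OT1, the imprinted antisense RNA, by 1.08. NORAD, a cytoplasmic RNA that binds PUMILIO proteins, read 259, 252 and 274 CPM under RK-33 and 465, 540.3 and 554 CPM under Combo. The libraries did not overlap and the adjusted p was 1.64e-06, with a log2 fold change of 0.99 ± 0.10 just under the limit, and it passed the limit under 5 of the alternatives tried. NEAT1, the scaffold of nuclear paraspeckles, had 2260.0, 3406 and 1815 CPM and 1504, 1559 and 1219 CPM, all Combo libraries below all RK-33 libraries, a log2 fold change of -0.81 (adjusted p 0.00978). MALAT1, another nuclear RNA, had 4576, 4041 and 4741 CPM and 4047, 4525 and 4297 CPM, with overlap (-0.05).

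Genes that fell were covered more thinly than genes that rose. Of the 250, 36 reached 10 CPM in the RK-33 mean and 1 reached 100 CPM, and the median of that mean was 3.54 CPM, against a median Combo mean of 9.69 CPM for the genes that rose. By annotation, 132 of the 250 were long noncoding RNAs and 43 were pseudogenes, where 2808 and 902 were tested, and 45 were protein coding of 13439. The median log2 fold change was -0.23 over all tested long noncoding RNAs, -0.24 over pseudogenes and 0.05 over protein-coding genes. Without Combo replicate 3, 65 long noncoding RNAs, 18 pseudogenes and 28 protein-coding genes fell, with medians of -0.17 in the noncoding classes. The number of genes that fell was lower whichever of the 6 libraries was left out, between 106 without RK-33 replicate 2 and 173 without Combo replicate 2. It was higher, at 369, without NaAsO2 replicate 3, which is outside the 6 and enters only through the joint fit. Of the genes that rose, 153 were protein coding and 50 long noncoding.

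VMP1 (chr17:59707192-59842255, plus strand), a membrane protein of autophagosome formation, was the 1 gene above 100 CPM that fell. It read 272, 244 and 262 CPM under RK-33 and 78.6, 80.0 and 64.3 CPM under Combo, with no overlap (log2 fold change -1.80 ± 0.20, adjusted p 2.35e-06). Its annotated exons include those of the microRNA gene MIR21 on the same strand and overlap PTRH2 on the opposite strand, and the counts did not use strand, so the source of these reads within the locus is not resolved. MIR222HG, the host transcript of a microRNA pair, fell from 66.5, 71.7 and 64.9 CPM to 27.6, 27.7 and 17.7 CPM (-1.48). SNHG4, a small nucleolar RNA host gene with exons that overlap MATR3 and SIL1, fell from 47.1, 45.1 and 52.8 CPM to 23.2, 25 and 18.8 CPM, by -1.12 with Combo replicate 3 and -0.99 without it. KHDC4, a splicing cofactor, and MIR29B2CHG, another microRNA host, changed by -1.08 (without Combo replicate 3 -0.95) and -1.39. SMARCE1, a subunit of the BAF chromatin remodelling complex, had 11.2, 10.7 and 12.3 CPM and 3.47, 2.99 and 2.49 CPM (-1.93). RPL36A, a ribosomal protein gene that overlaps GLA on the opposite strand and a read-through gene, changed by -1.55. RNPC3, a protein of the minor spliceosome with exons shared with AMY2B, changed by -1.13, and the noncoding genes LINC01186, LINC01943, ZBTB47-AS1 and ASAP1-IT2 by -1.13, -1.96, -1.36 and -1.38, of which ASAP1-IT2 was not called without Combo replicate 3.

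Counts over introns come from unspliced precursor RNA, retained introns or excised introns, and here they changed in far more genes than counts over exons. Of 17406 genes tested by intron counts 1694 rose (9.73%) and 811 fell (4.66%), 2505 in all and 2369 without Combo replicate 3. Reads were counted without strand, so reads of antisense genes are included. Intron counts were scaled to their own total, which was a smaller share of all counts under Combo (27.5%) than under RK-33 (35.8%). Intron and exon changes are therefore not on 1 common scale, here and below. In HMOX1 introns the counts rose from 9.39, 8.29 and 11.6 CPM of intron counts to 184, 149 and 162 CPM (4.08 ± 0.20 on the log2 scale, adjusted p 6.07e-15), beside 2.56 for its exons. NDRG1 introns rose from 208, 230.5 and 213 CPM to 1387, 1416 and 1922 CPM (2.86, exons 1.28). FAM53C introns rose from 14.1, 14.3 and 12.7 CPM to 181, 172 and 216 CPM (3.78, exons 1.33). For all 3 genes the log2 fold change of the introns, on their own scale, was above that of the exons. Every Combo library was above every RK-33 library. Introns of DISP3, MT1E and TENT5C, a poly(A) polymerase gene, rose by 5.50, 3.10 and 3.10.

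Introns also fell in genes whose exons did not. WDR43, a factor of ribosome biogenesis, fell from 297, 283 and 259 CPM to 54.7, 61.5 and 59.5 CPM of intron counts (-2.25 ± 0.16, adjusted p 1.13e-11), while its exons changed by -0.12. KLF6, a zinc finger transcription factor, fell from 40.7, 40.5 and 41.5 CPM to 4.47, 5.75 and 6.13 CPM over introns (-2.91) while its exons changed by 0.43 (adjusted p 0.0321). The 3 Combo libraries were far below the 3 RK-33 libraries in both. The proline synthesis enzyme ALDH18A1, the RNA-binding protein ZFR, the chaperonin subunit CCT5 and the purine enzyme ATIC had intron changes of -1.76, -1.57, -1.51 and -1.89. Of 61 ribosomal protein genes tested over introns, 19 fell and 2 rose, with a median of -0.59 against a median exon change of 0.08 over the 79 tested by exons.

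Exons and introns, each scaled to its own total, could be set side by side in 13116 genes. Of the genes whose exons rose, introns rose in 114, were not called in 20 and fell in 3, which were CCN1 (exons 1.27, introns -1.45), RASSF9 (1.06 and -1.30) and MED9 (1.01 and -1.61). Of the genes whose exons fell, introns fell in 8, were not called in 44 and rose in 2, BDNF-AS and TPTEP2. In 952 genes the introns alone rose and in 788 they alone fell. The median exon change was 0.39 for genes whose introns rose and 0.03 for those whose introns fell. Calls were rarest in genes with the longest introns. From the shortest quintile of total intron length (36 to 9343 bases) to the longest (114510 bases or more), 12.4, 12.1, 11.2, 8.07 and 4.83% of genes were higher and 5.74, 8.13, 6.52, 2.36 and 0.546% were lower. Intron counts of long noncoding RNAs rose in 350 of 3635, or 9.63%, close to the share over all genes, and fell in 26, or 0.715%.

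**Figure D4:**
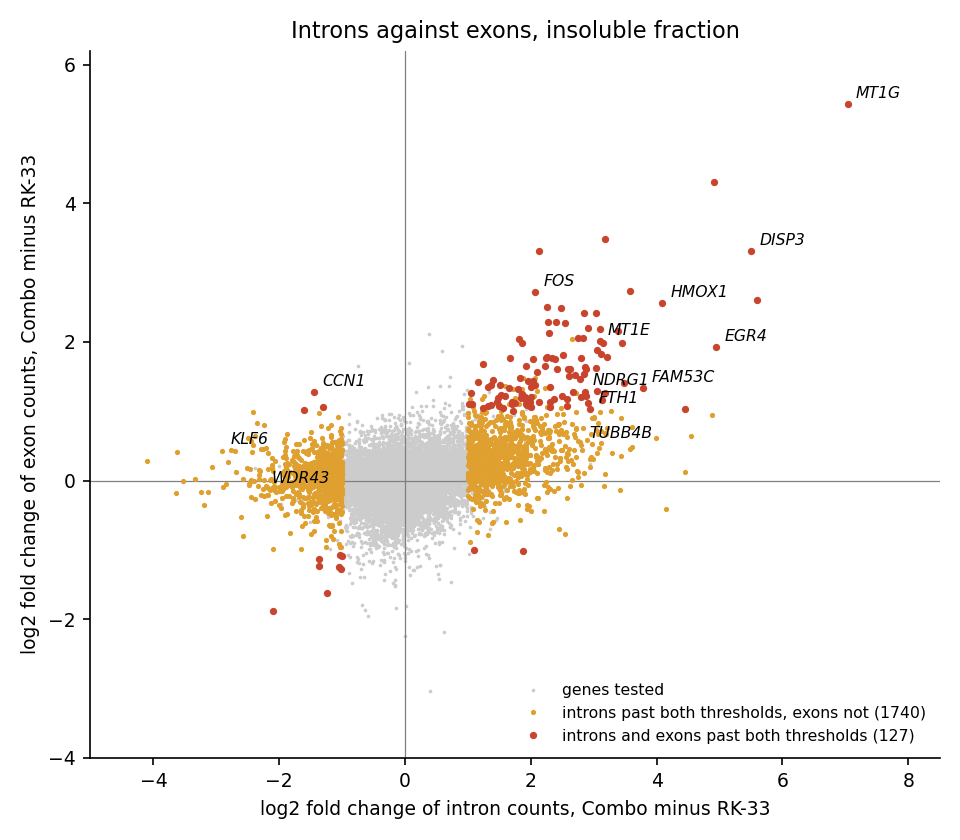
Log2 fold change of exon counts (vertical) against that of intron counts (horizontal), Combo minus RK-33 in the insoluble fraction, 1 point per gene tested by exons and introns, with genes past both thresholds by introns alone in orange and by introns and exons in red. CCN1 lies at upper left with exons at 1.27 and introns at -1.45, and KLF6 has introns at -2.91 with exons at 0.43.

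The same stress in the soluble fraction, taken from the same lysates, shows which changes were unequal between the fractions. Of the 220 genes that rose in the insoluble fraction, 134 were also called higher in the soluble fraction, with medians of 1.47 and 1.30, and 20 of the 250 genes that fell were called lower there, with medians of -1.31 and -0.35. Over all genes tested, 1.80% were called higher and 0.187% lower in the soluble fraction. The fractions share lysates but no library. A test of the difference between the fractions called 42 genes (0.238% of those tested), 22 with a higher and 20 with a lower change in the insoluble fraction. Without Combo replicate 3 there were 23, and 15 to 27 without any 1 of RK-33 soluble replicates 2 and 3, Combo soluble replicates 2 and 3, RK-33 insoluble replicates 1 and 2 and Combo insoluble replicate 2. Without NaAsO2 replicate 3, which is in none of the groups compared and enters only through the joint fit, there were 262 (62 higher and 200 lower). A fit with a term for each lysate, by treatment and replicate number, called 9 genes, all with a higher change in the insoluble fraction. By unadjusted p under 0.05 with the same fold limit the number was 732.

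ID1 rose in the pellet and not in the supernatant, where it stood at 193 ± 28.8 CPM under RK-33 and 187 ± 4.08 CPM under Combo (SD, n = 3 each), a difference between the fractions of 2.25 ± 0.26 on the log2 scale (adjusted p 6.88e-05). For CCN1 the soluble means were 1091 ± 41.7 and 848 ± 35.2 CPM, lower under Combo, and the difference was 1.64 ± 0.15 (adjusted p 2.19e-06). IER3 stood at 115 ± 28.2 and 105 ± 4.99 CPM in the soluble fraction (difference 1.80). These 3 messages were thus higher under Combo in the pellet and not in the soluble means. NFKBIA (soluble 66.0 ± 5.58 and 80.3 ± 3.92 CPM, difference 1.38), NORAD (261 ± 6.14 and 233 ± 21.4 CPM, 1.15) and LRRC58 (1.18) also had a higher change in the insoluble fraction. In the other direction, NEAT1 changed by -0.81 in the insoluble and 0.39 in the soluble fraction (difference -1.20), LINC01036 by 0.07 and 1.30 (-1.23), RNASEH2B, a subunit of ribonuclease H2, by -0.96 and 0.11 (-1.07), MYO18B-AS1 by -0.89 and 0.89 (-1.78) and the pseudogene FAR2P1 by -0.88 and 0.84 (-1.72). ID1, CCN1, IER3, NFKBIA, NORAD and LRRC58 passed the thresholds under the alternatives tried on this difference, the lysate term included. LINC01036 lost its call with the lysate term alone. NEAT1 lost its call under 13 alternatives, FAR2P1 under 11, MYO18B-AS1 under 8 and RNASEH2B under 6, the lysate term included. Without Combo replicate 3, NEAT1, FAR2P1 and RNASEH2B were not called. Stress genes that rose in the pellet had soluble changes of 2.52 for FOS, 2.40 for HMOX1, 4.31 for MT1X and 3.57 for HSPA6, and the differences of 0.20, 0.15, -0.13 and -0.68 were not called.

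**Figure D5:**
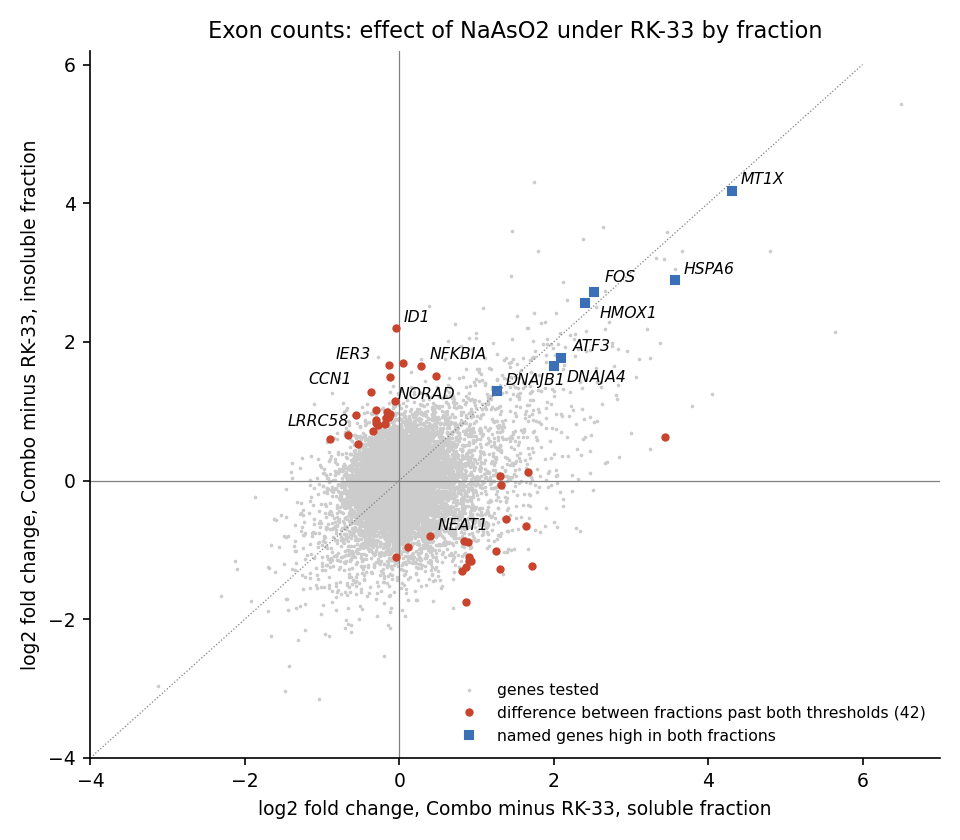
Log2 fold change, Combo minus RK-33, in the insoluble fraction (vertical) against the soluble fraction (horizontal), 1 point per gene tested, with the 42 genes whose change differed between fractions in red and stress genes named in blue squares. ID1, CCN1, IER3, NFKBIA and NORAD lie above 0 on the vertical axis and near 0 on the horizontal axis, and the stress genes lie near the dotted line of equal change.

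Arsenite was also given without RK-33 in this series, and the effect of arsenite with the inhibitor was tested against its effect without it in the insoluble fraction. The effects differed in 698 genes (3.95%), 418 with a higher (2.37%) and 280 with a lower (1.58%) change under RK-33. The effects compared share no library. NaAsO2 replicate 3 carried 5.79% RN7SL1, against 0.426 and 0.798% in the other NaAsO2 libraries. The number moved widely with single libraries. It was 1545 without Combo replicate 3, and 405 and 429 without Combo replicates 1 and 2. Without NaAsO2 replicates 1 and 2 it was 1806 and 1244. Without NaAsO2 replicate 3 it was 645, with 518 higher and only 127 lower. With Combo replicate 3 and NaAsO2 replicate 3 both left out it was 899, which included 316 of the 418 and 169 of the 280. Over the 418 genes the median change was -1.05 without RK-33 and 0.28 with it, and over the 280 it was 1.17 and 0.01. The median GC content of exons was 43.0% in the 418, 56.9% in the 280 and 47.6% in all genes tested, and without RK-33 the change by arsenite ran from a median of -0.36 in the quintile of genes lowest in GC to 0.48 in the highest. With RK-33 these medians were 0.02 and 0.04, but 0.13 and -0.13 without Combo replicate 3. The part of GC content in the 698 genes was not tested.

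Named genes show both forms of the difference. CD9, a tetraspanin of the cell surface, read 58.6, 47.5 and 45.6 CPM under RK-33 and 55.0, 52.7 and 48.2 CPM under Combo, overlapping ranges, but 129 ± 6.18 CPM in Ctrl and 37.9 ± 6.97 CPM in NaAsO2 libraries (SD, n = 3 each), so that the effects of 0.04 and -1.76 differed by 1.80 ± 0.17 (adjusted p 7.18e-06). NDRG1, described above, changed by 1.28 and -0.09 (difference 1.37). Differences of the same sign were found for SKP1 of the SCF ubiquitin ligases (1.29), the superkiller complex subunit WDR61 (1.58) and the membrane protein CLPTM1 (1.37). HES1, a repressor of the Notch pathway, changed by 1.13 with RK-33 and 2.88 without, a difference of -1.74 ± 0.21 (adjusted p 2.94e-05). It rose in both settings but less with the inhibitor. Smaller changes with RK-33 than without were also found for ZFP36L1, an AU-rich element binder (0.75 and 1.98, difference -1.24), the pseudokinase TRIB1 (0.63 and 1.87, -1.24), SPRY2, an inhibitor of receptor tyrosine kinase signalling (0.34 and 1.54, -1.21), the cell cycle regulator SERTAD3 (0.78 and 2.23, -1.44) and the polarity gene PARD6B (0.30 and 1.87, -1.57). All 11 of these genes passed the thresholds under every alternative tried.

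List members called in the difference from arsenite without RK-33 are counted here. Over all genes tested, 2.37% were called with a higher change and 1.58% with a lower change. Of 21 long noncoding RNAs, 10 had a higher change with RK-33 than without, with medians of -0.03 and -0.79, and MALAT1 stood at -0.05 and -1.62 (difference 1.56, adjusted p 0.00141). Of 21 secretory and membrane protein messages 5 did (medians 0.04 and -0.56), of 16 genes of the unfolded protein response 4 (medians 0.10 and -0.51), among them HSP90B1 and CANX, chaperones of the endoplasmic reticulum, with differences of 1.47 and 1.18, and of 79 ribosomal protein genes 5 (medians 0.08 and -0.43). In the other direction, 7 of 13 MAP kinase phosphatases and AU-rich element binders (medians 0.75 and 1.54) and 5 of 21 immediate early genes (0.71 and 1.61) had a lower change with RK-33, among them EGR1 (1.68 and 2.97) and DUSP2 (1.53 and 3.23). The metallothioneins, HSP70 genes and ATF4 genes had 1, 1 and 0 members called higher and none lower in this difference. Their medians with and without RK-33 were 1.71 and 1.09, 0.35 and -0.38, and 0.46 and 0.95. In the list of 25 cochaperones and other heat shock genes, 3 were called higher and none lower (medians 0.41 and -0.03). Of 22 NRF2 and BACH1 genes, 2 were called higher and 1 lower (medians 0.35 and 0.12). FOS, ATF3 and HMOX1 changed by 2.59, 1.89 and 1.79 without RK-33, and the differences from the values with RK-33 were 0.13, -0.12 and 0.77, with adjusted p of 0.707, 0.641 and 0.0152.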

How the data were processed

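RNA was extracted from soluble and insoluble cytoplasmic fractions and sequenced from directional NEBNext libraries. Per the study's methods and the submitters' processing notes, reads were aligned with STAR 2.7.2b to GRCh38.p13, handled with SAMtools 1.2 and counted over exons and over introns of GENCODE 40 genes with featureCounts 1.5.3, unique reads only, without strand and, for introns, with an overlap of at least 25 bases. Circular RNAs were called with DCC. The deposited values used here are raw counts per gene made by the authors (60308 genes over exons, 37473 over introns) and counts of back-splice and linear junctions for 394 circular RNAs. Genes split over lines (1 exon and 21 intron genes) were rejoined, and the 37 mitochondrial genes had 0 counts.

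Libraries were grouped by GEO's labels into 8 groups of 3. The study's methods say that the experiment was done 3 times, and the labels do not say whether the replicates are separate cultures, so p-values measure the spread between these samples, which may be technical. All 24 libraries were fitted together with edgeR 4.0.16 in R 4.3.3 (TMM scaling, glmQLFit and glmQLFTest, group as the only term) after a filter at a mean of at least 1 CPM, with exons and introns fitted apart. Genes at an adjusted p under 0.05 and a log2 fold change of at least 1 were called. TMM left the median log2 fold change over all genes at 0.02. Because it scales libraries to a common level, rises and falls are relative to the other RNAs of a library. The study added spike-in RNA, but the deposited counts held 0 spike-in entries. A change in the total amount of pelleted RNA was therefore not tested. Shares of counts were compared with exact permutation tests over libraries. Scripts used Python 3.11.15, pandas 2.3.3, numpy 2.4.6 and matplotlib 3.10.9. The exon fit was also run on simulated counts in which no library was made to stand apart. That run therefore does not cover the effect of Combo replicate 3 or NaAsO2 replicate 3. Alternatives included DESeq2 1.42.0, other scalings and filters, exon plus intron counts, and leaving out libraries.

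The comparison and the gene lists were chosen with earlier results of these data known. Named genes are, in each direction, the 12 with the smallest adjusted p and the 12 with the largest change among called genes with at least 10 CPM in the higher group, the genes the study's text names, members of 24 lists, and the 6 genes per direction with the smallest adjusted p in each test of a difference and over introns. The list members given outside the called ones, MALAT1, NEAT1, CANX, HSP90B1, EGR1 and DUSP2 in the tests of a difference, and RASSF9, MED9, BDNF-AS and TPTEP2 were chosen after their values were seen. Among genes that fell, 5 with clone names were skipped, and some genes that meet the rule are not reported here. Promoters came from RefSeq on GRCh38.p14. Precision is limited by counts, and CPM of 1 stands for about 10 to 15 reads per library.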

Additional observations from a re-analysis of the deposited data

Results flagged for a closer look

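The change from RK-33 to Combo in the insoluble fraction differed from another change of the same kind, by a test of the difference itself, in 698 genes against arsenite without RK-33 and in 42 genes against the soluble fraction (edgeR, adjusted p under 0.05 and a log2 difference of at least 1). Against arsenite without RK-33, the log2 difference was 1.80 for CD9, 1.37 for NDRG1, 1.58 for WDR61, 1.29 for SKP1 and 1.37 for CLPTM1, which changed more upward or less downward with the inhibitor. It was -1.57 for PARD6B, -1.24 for ZFP36L1, -1.74 for HES1, -1.24 for TRIB1, -1.21 for SPRY2 and -1.44 for SERTAD3. Against the soluble fraction, it was 1.64 for CCN1, 1.38 for NFKBIA, 2.25 for ID1, 1.18 for LRRC58, 1.15 for NORAD and 1.80 for IER3, which changed more upward in the pellet. It was -1.23 for LINC01036, -1.07 for RNASEH2B, -1.78 for MYO18B-AS1, -1.72 for FAR2P1 and -1.20 for NEAT1, which changed more upward in the soluble fraction. Each of these lost its call under at least 1 alternative, and NEAT1 under 13. Groups here held 3 libraries, so no separate test for single outlying samples was run in these comparisons. Combo replicate 3 and NaAsO2 replicate 3 stood apart as described above, and the counts without them are given.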

How the results depend on the processing

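Of the 64 genes named by exon counts, 55 kept their side of both thresholds under every alternative that tested them, and none reversed. The 10 CPM filter left some of the 64 untested. The 12 named by introns and the 11 named against arsenite without RK-33 kept their side under every alternative tried. BBC3, IER5, FTH1, HSPA1B, SNHG4, KHDC4 and ASAP1-IT2 lost their calls under some and SRSF3 by library size alone, NORAD gained one under 5, and of the 11 named against the soluble fraction NEAT1, FAR2P1, MYO18B-AS1, RNASEH2B and LINC01036 lost theirs under some. The count of 470 exon genes (220 higher and 250 lower) became 714 with no filter (400 and 314), 100 under a 10 CPM filter (82 and 18), 762 with exon plus intron counts (571 and 191), 1293 with no fold limit and 64 at a log2 fold of 2, and 275 to 375 with 1 of the 6 libraries left out, lowest without RK-33 replicate 2 (169 higher and 106 lower). DESeq2 gave 521. The 2505 intron genes became 1323 at 10 CPM, 5191 with no fold limit, 552 at a log2 fold of 2 and 2298 to 2482 with 1 library left out. The 698 genes that differed from arsenite without RK-33 became 195 with the groups of the contrast fitted alone, 2030 with no fold limit, 69 at a log2 fold of 2 and 405 to 1806 with 1 library left out. Their split of 418 higher and 280 lower was 404 and 430 with DESeq2 and 362 and 354 with RLE size factors. Without NaAsO2 replicate 3 the split was 518 and 127. The 42 genes that differed from the soluble fraction (22 higher and 20 lower) became 14 by library size alone (10 higher and 4 lower), 160 with no filter (65 and 95), 25 at 10 CPM (17 and 8), 159 with glmLRT (35 and 124), 124 with DESeq2 (35 and 89), 101 with the groups of the contrast alone (30 and 71), 90 with no fold limit, 12 at a log2 fold of 2 and 209 (51 higher and 158 lower) without Combo and NaAsO2 replicates 3, a setting chosen after seeing the data. A replicate block by lysate, also chosen after seeing the data, gave 9 (9 higher and 0 lower), and the same-numbered soluble and insoluble libraries deviated together by correlations of -0.314 to 0.0629. With 1 library of the 4 groups left out they numbered 15 to 52, of which 21 and 15 without RK-33 soluble replicates 2 and 3, 20 and 15 without RK-33 insoluble replicates 1 and 2, 27 and 22 without Combo soluble replicates 2 and 3, and 19 and 23 without Combo insoluble replicates 2 and 3. The cause of these moves was not tested. Differences between the shares ran from -9.65 to -5.70 points for introns, -0.232 to -0.0802 for circular RNA and -0.0644 to 0.291 for RN7SL1, which was -0.0644 without Combo replicate 3. Same-numbered RK-33 and Combo libraries deviated together by correlations of 0.245, -0.297 and -0.141, so the replicate numbers were not taken to pair them, and a replicate block gave 463 exon genes, 2467 intron genes, 774 against arsenite alone, 45 against the soluble fraction, and the same mean differences in shares (-8.28, 0.135 and -0.165), with a sign-flip test that cannot go below 0.25. Genes under a mean of 1 CPM were not tested at this depth.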
